A study of Homo sapiens with 18 samples.

Results

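The platform of the small ribosomal subunit was followed here through 300 nucleotides of human 18S rRNA, index 901 to 1200, out of 660 nucleotides read with the same primer pair and 1816 read in the series. The rule for the members names positions and uses no measured value, and every one of the 300 had a value in every library of that primer pair. The cells were MDA-MB-231, an established human breast cancer line. They carried a scrambled control (SCR) or 1 of the knockdowns named FBL1 and FBL2. The labels do not spell the name out, and the series title concerns fibrillarin. Each line received 2A3 or DMSO, the solvent background, for 15 min at 37 °C. The RNA was reverse transcribed with specific primers, amplified and sequenced on a nanopore instrument. Primer set 2 spans index 614 to 1273 and supplied the window. Primer set 1, index 1155 to 1840, supplied a second reading of the last 46 nucleotides. Each line, reagent and primer set is 1 library, so values have no replicate, libraries cannot be tested against each other and p-values are absent. Fibrillarin itself is not measured in these libraries, nor can the cell line be checked against marker genes, since only 18S rRNA was read.

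The platform is built from the central domain of 18S rRNA and lies on the side of the subunit where messenger RNA leaves. Its hairpin loops approach the exit-site transfer RNA and form bridges to the large subunit. 2A3 acylates the ribose 2′-hydroxyl of nucleotides that can move, so paired or tightly held nucleotides give little signal, and a nucleotide held by protein looks the same as one held by a base pair. Fibrillarin is the enzyme of the box C/D particles, which place a methyl group on that same hydroxyl. The gene exists in many ribosomal DNA copies that the reads cannot tell apart, so positions are given by index in the rRNA.

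The window is printed below because the pattern is a few reactive spots within long silent stretches. Capitals mark the 14 nucleotides called flexible.

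18S rRNA index 901 to 1200: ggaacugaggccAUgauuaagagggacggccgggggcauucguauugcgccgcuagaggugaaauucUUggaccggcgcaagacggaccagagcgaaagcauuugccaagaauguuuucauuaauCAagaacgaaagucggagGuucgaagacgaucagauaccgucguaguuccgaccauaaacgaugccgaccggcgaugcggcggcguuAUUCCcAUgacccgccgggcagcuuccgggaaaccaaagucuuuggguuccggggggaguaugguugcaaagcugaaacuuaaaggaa

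The signal of a nucleotide is the percent of reads with an event in 2A3 minus that in DMSO. The deposited values move in steps of 0.1%, and a value listed at 0 is under 0.05%. Depth in the window ran from 360439 to 644437 reads per position. The counting error at a value of 1% is 0.0125% at the largest depth and 0.0163% at 377115 reads. It is slightly above that at the smallest depth. Values after ± are such counting errors. They leave out PCR duplication and any difference between cultures.

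Most of the platform was silent. Mean signal over the 300 nucleotides was 0.195% of reads in SCR against 0.305% in FBL1 and 0.248% in FBL2, and the medians were 0%, 0.1% and 0.1%. In the other 360 nucleotides of the primer set 2 stretch the means were 0.493%, 0.684% and 0.602%, so the platform held 0.396, 0.446 and 0.413 of the level around it. The contrast came from the part before the window, whose means were 0.6%, 0.833% and 0.731%. The 73 nucleotides after the window were quieter still, at 0.0699%, 0.0959% and 0.0932%. Without U969, the most reactive nucleotide, the platform means were 0.154%, 0.251% and 0.198%. The DMSO background in the window was alike in the lines, with means of 0.118%, 0.129% and 0.127%.

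**Figure D1:**
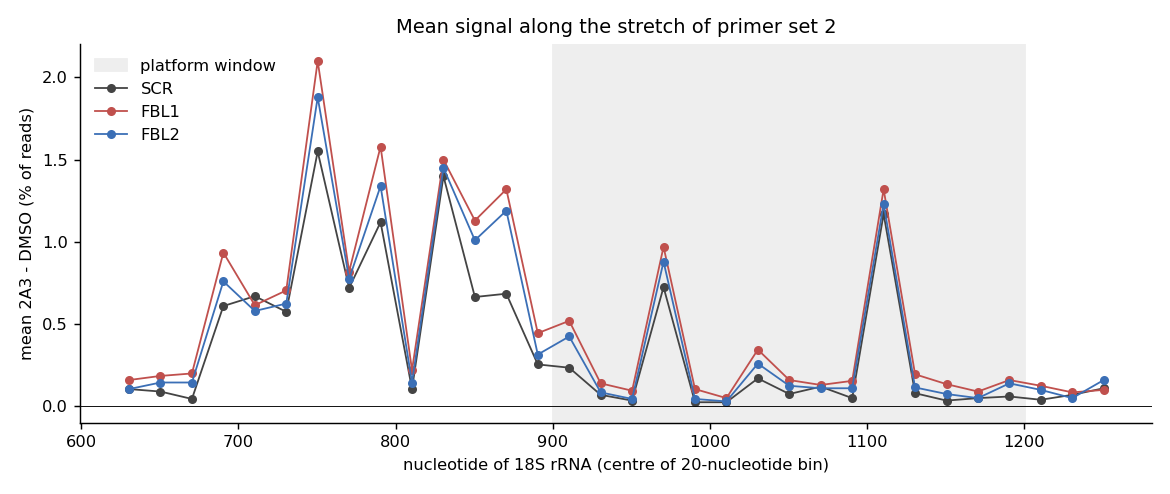
Mean 2A3 minus DMSO signal, in percent of reads, in bins of 20 nucleotides along the stretch of primer set 2, 1 point per bin and line, with the platform window shaded. Within the window the bins around index 970 and 1110 are the highest, those around 910 and 1030 are raised less, and most bins before it, between 680 and 900, lie above the platform's quiet bins.

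To compare lines and classify nucleotides, each line was divided by its own normalized unit, the average of the values from the 90th to the 98th percentile over the whole primer set 2 stretch. This unit was 1.68% of reads in SCR against 2.14% in FBL1 and 1.95% in FBL2. A nucleotide was called flexible at 0.4 units or more in all 3 lines, highly flexible at 0.8 or more, and protected when its signal was at most 0.1% of reads in all 3 lines. By these rules 14 of the 300 platform nucleotides were flexible (4.67%), beside 9.55% of the whole stretch. 8 of them were highly flexible, 2.67% of the window beside 5.45% of the stretch. Protected nucleotides numbered 196, or 65.3% of the window, beside 56.4% of the stretch, and the remaining 90 fell in neither class. In the 287 nucleotides before the window 49 were flexible and 124 protected, and in the 73 after it none was flexible and 52 were protected.

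**Figure D2:**
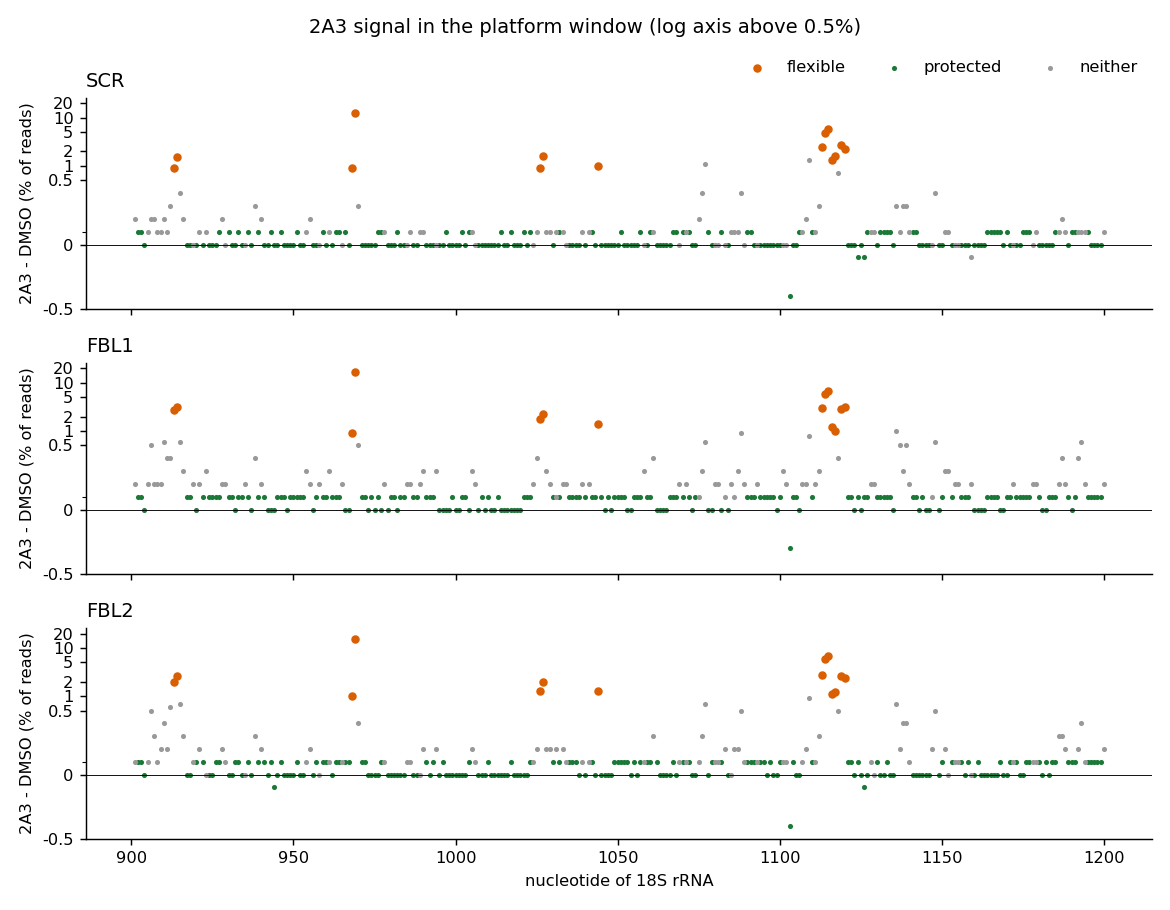
2A3 minus DMSO signal in percent of reads (axis linear up to 0.5% and logarithmic above) of each of the 300 platform nucleotides, 1 panel per line. Orange points are the 14 flexible nucleotides, green points the 196 protected ones and grey points the other 90; the flexible ones lie in 5 places along the window.

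The 14 flexible nucleotides formed 5 groups, A913 and U914, U968 and U969, C1026 and A1027, G1044 alone, and 7 of the 8 nucleotides from A1113 to U1120. They comprised 6 of the 58 uridines, 4 of the 81 adenosines, 3 of the 67 cytidines and 1 of the 94 guanosines. In the rest of the stretch 11 of 76 uridines, 11 of 75 adenosines, 13 of 105 cytidines and 14 of 104 guanosines were flexible. Together the 14 platform nucleotides held 68.9% of the summed platform signal in SCR against 57.7% in FBL1 and 64.3% in FBL2. At the edge of the rule, C1117 and U968 were the lowest flexible nucleotides, with 0.468 and 0.421 units in their lowest line, and C1109 was the highest one outside, at 0.374.

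U969 dominated the region. Its signal was 12.6% ± 0.0502 of reads in SCR against 16.5% ± 0.0590 in FBL1 and 15.2% ± 0.0638 in FBL2, over a DMSO value of 0.1% in every line. It alone carried 21.5%, 18% and 20.4% of the summed platform signal. With a mean of 7.67 units it ranked second of the 660 nucleotides of the stretch, after U743, which lies outside the platform, at 10.3 units. Its 5′ neighbour U968 gave 0.9%, 0.9% and 1.0%, and its 3′ neighbour G970, named here after its values were seen, 0.3%, 0.5% and 0.4%, so the reactivity was centred on 1 nucleotide. U969 lies 4 nucleotides past the GUGAAAU motif in the loop of helix 23, which faces the exit-site transfer RNA, and the motif itself gave at most 0.3%.

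The segment from A1113 to U1120 was the broadest reactive element. U1115 gave 5.9% ± 0.0352 in SCR against 6.7% ± 0.0384 in FBL1 and 6.7% ± 0.0431 in FBL2, and U1114 gave 4.8% ± 0.0313, 6.0% ± 0.0359 and 5.8% ± 0.0398. Only U969 exceeded them in any line of the platform, and they ranked 7 and 10 in the whole stretch. On their flanks A1113 gave 2.5%, 3.0% and 2.7%, A1119 2.7%, 2.9% and 2.6%, and U1120 2.2%, 3.1% and 2.4%. The cytidines between them were lower. C1116 gave 1.3%, 1.2% and 1.1%, C1117 1.6%, 1.0% and 1.2%, and C1118 0.7%, 0.4% and 0.5%, which left C1118 as the only nucleotide of the segment that was not flexible. The signal ended sharply on both sides, at 0.3% in each line at U1112 and at 0%, 0.1% and 0.1% at G1121.

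The other groups were smaller. A1027 gave 1.6% ± 0.0198 in SCR against 2.3% ± 0.0244 in FBL1 and 2.0% ± 0.0248 in FBL2, and its 5′ neighbour C1026 gave 0.9%, 1.8% and 1.3%. G1044 was the only flexible guanosine of the window, at 1.0%, 1.4% and 1.3%, and it stood between protected neighbours, G1043 and U1045. A913 and U914 gave 0.9% and 1.5% in SCR, and their higher values in the knockdowns are described with the changes.

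**Figure D3:**
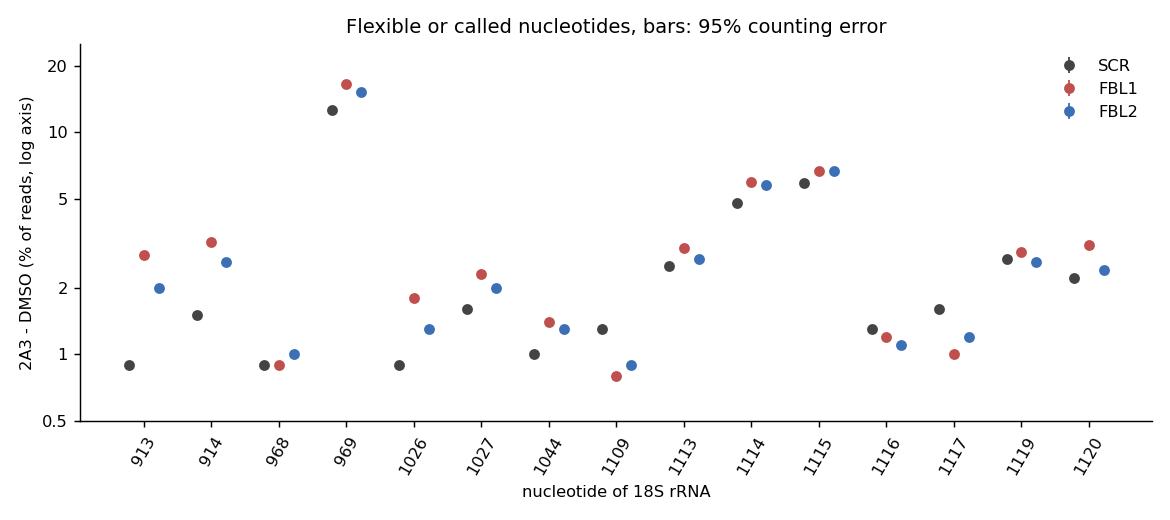
2A3 minus DMSO signal in percent of reads (log axis) of the 14 flexible nucleotides and C1109 in SCR, FBL1 and FBL2, 1 library per point; bars span the 95% counting error and are mostly smaller than the points. U969 lies far above all others in each line. Most of the nucleotides, A913 and U914 among them, are lowest in SCR, whereas C1109, C1116 and C1117 are highest in SCR.

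The protected nucleotides were arranged in 47 unbroken runs, of which 16 had at least 5 nucleotides and together held 132 of the 196. 11 runs were single nucleotides. The longest runs are printed because they show the sequence of the silent platform.

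index 1007 to 1023: caagaauguuuucauua

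index 941 to 953: cguauugcgccgc

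index 1045 to 1057: uucgaagacgauc

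index 1160 to 1171: uuccggggggag

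By the rule no signal in these runs exceeded 0.1%, and their base content varied. The run of 17 nucleotides from 1007 is rich in adenosine and uridine and the one from 1160 in guanosine. Over the whole window 70.4% of adenosines, 73.1% of cytidines, 63.8% of guanosines and 51.7% of uridines were protected. In the rest of the stretch these shares were 62.7%, 53.3%, 43.3% and 36.8%, again lowest for uridines. Within the window uridines had the highest mean signal, at 0.538% in SCR against 0.797% in FBL1 and 0.683% in FBL2, and guanosines had the lowest, at 0.0734%, 0.153% and 0.0979%. Without U969 the uridine means were 0.326%, 0.521% and 0.428%, still the highest of the 4 bases. In the rest of the stretch uridines were again highest, but adenosines were lowest, at 0.271% in SCR beside 0.488% for guanosines.

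Some known loops of the platform were located by 7-letter motifs, each found once in 18S rRNA and searched on the RNA strand only. Other loops of the platform were not looked for in this way. They are shown with 10 nucleotides on each side and the motif in capitals. The first is the loop of helix 23 and the next the loop of helix 24, both of which line the path of messenger RNA and transfer RNA. The last is the tetraloop of helix 27, a helix that lies beside the decoding helix of the subunit.

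helix 23: gccgcuagagGUGAAAUucuuggaccg

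helix 24: gaagacgaucAGAUACCgucguaguuc

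helix 27: gggaguauggUUGCAAAgcugaaacuu

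None of the 21 motif nucleotides, which include some closing or neighbouring bases of each loop, was flexible. In the whole window only 4.67% were, so none among 21 does not set these loops apart. In each motif 5 of 7 were protected, close to the 65.3% of the whole window. In the helix 23 loop the highest signal was 0.3% at G961 in FBL1, with 0.1% in SCR and 0.1% in FBL2. In the helix 24 loop U1061 was highest, at 0.1% in SCR against 0.4% in FBL1 and 0.3% in FBL2. In the helix 27 loop no value exceeded 0.2%.

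A fold predicted from the sequence of the window alone, with no probing values, placed 166 nucleotides in pairs and 134 outside them. The median of the line means was 0.0667% for predicted paired and 0.1% for predicted unpaired nucleotides, which is less than 1 rounding step apart. By mean the order was turned, at 0.229%, 0.346% and 0.285% in SCR, FBL1 and FBL2 for paired nucleotides against 0.154%, 0.254% and 0.203% for unpaired ones. U969 carried this, since the paired means were 0.154%, 0.248% and 0.195% without it. 8 of the 14 flexible nucleotides were predicted paired and 6 unpaired, which is 4.82% and 4.48% of these classes. Protected nucleotides made up 71.7% of the paired class (119 of 166) and 57.5% of the unpaired class (77 of 134). A fold of the whole stretch put 7 flexible nucleotides in each state. With that fold the order by mean was not turned, at 0.243% for paired and 0.261% for unpaired nucleotides over the lines. One predicted hairpin, index 1110 to 1123, is shown with its loop in capitals because it holds the broadest reactive element.

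predicted hairpin: guuauUCCCaugac

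Its 4 loop nucleotides averaged 2.38% in SCR against 2.33% in FBL1 and 2.38% in FBL2, and its 10 stem nucleotides 1.27%, 1.58% and 1.42%. Of the 10 stem nucleotides the 4 nearest the loop, A1113, U1114, A1119 and U1120, were flexible, and 4 farther out were protected. The other 4 predicted hairpins had loop means of at most 0.0667% in SCR against 0.233% in FBL1 and 0.1% in FBL2.

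Am1031, the listed 2′-O-methyl site of the window, gave 0.8%, 0.7% and 0.7% in 2A3 and 0.7%, 0.6% and 0.5% in DMSO, for SCR, FBL1 and FBL2. That left signals of 0.1%, 0.1% and 0.2%. The change at the site was thus within 1 rounding step, and its DMSO value stood above the window mean. Of the 10 listed pseudouridines, uridines whose base is turned round by other RNA-guided enzymes, 8 were protected and none was flexible. In the whole window 65.3% were protected and 4.67% flexible. Of the other 48 uridines 22 were protected and 6 flexible. U1136 was the listed pseudouridine with the highest signal, at 0.3% ± 0.00984 in SCR against 1.0% ± 0.0157 in FBL1 and 0.7% ± 0.0151 in FBL2. The highest DMSO value of the window was at C1103, with 1.6%, 1.5% and 1.6%, above its 2A3 value of 1.2% in every line. The rule counted C1103 as protected, at signals of -0.4%, -0.3% and -0.4%, though a background above the 2A3 value cannot show protection.

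The next comparison asked which platform nucleotides changed in the knockdown lines. FBL1 and FBL2 are both set against the same SCR library, so their differences from it are not independent. Before scaling, the platform mean was 1.56 times the SCR mean in FBL1 and 1.27 times in FBL2, and in the rest of the stretch the ratios were 1.39 and 1.22. The higher mean came with fewer nucleotides at or below 0, of which there were 162 in SCR against 66 in FBL1 and 116 in FBL2. FBL1 was above SCR at 171 nucleotides, equal at 109 and below at 20, and FBL2 was above at 118, equal at 145 and below at 37. At the 14 nucleotides with a mean of at least 1% over the lines the median ratio to SCR was 1.28 in FBL1 (range 0.615 to 3.11) and 1.17 in FBL2 (0.692 to 2.22). The corresponding medians over 44 nucleotides of the rest were 1.31 and 1.17. That choice of nucleotides uses the knockdown values that also enter the ratio. Choosing them by SCR alone, the denominator, lowered the medians to 1.2 and 1.09 at 13 platform nucleotides. The highest FBL1 ratio there was 2.13. By the same choice the medians were 1.15 and 1.09 at 40 nucleotides of the rest. The order of platform and rest in FBL1 thus depended on the choice. By its mean signal the rest of the stretch was also higher in the knockdowns. Its part in the platform difference was not tested, and with 1 library a line a difference between libraries cannot be told apart from the knockdown.

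After scaling, a nucleotide was called risen or fallen when both knockdowns differed from SCR by at least 0.3 units in the same direction and by more than 1.96 times the summed counting errors. The rule called 2 rises and 2 falls in the platform. Across the stretch of primer set 2 it called 2.12% of nucleotides as rises and 1.97% as falls, and 12 rises and 11 falls lay outside the window. The called share of the platform, 4 of 300, was thus below that of the stretch. The rule sets an absolute size, so nucleotides with little signal in every line, such as the 196 protected ones, could hardly be called. Flexible nucleotides were 14 of 300 in the platform and 49 of 360 in the rest. The lower share therefore does not show that the platform changed less, and a comparison at equal signal was not tested.

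Both rises were neighbours. A913 had 0.9% ± 0.0147 of reads in SCR against 2.8% ± 0.0249 in FBL1 and 2.0% ± 0.0239 in FBL2, which is 3.11-fold and 2.22-fold of SCR before scaling. U914 had 1.5% ± 0.0183, 3.2% ± 0.0265 and 2.6% ± 0.0270, or 2.13-fold and 1.73-fold. Both knockdowns lay above SCR and FBL1 lay above FBL2. Scaled, A913 went from 0.535 units to 1.31 and 1.03, and U914 from 0.892 to 1.5 and 1.33, mean rises of 0.632 and 0.523 units. DMSO was 0.1% at both nucleotides in every line. The nucleotides around them stayed low, with 0.3%, 0.4% and 0.6% at C912 and 0.4%, 0.6% and 0.7% at G915. Both calls were lost with a sliding mean of 3 positions and with a threshold of 0.5 units, and under a box-plot scaling with no limit on outliers the mean differences turned to -0.485 and -4.03.

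Both falls were cytidines of the 3′ reactive segment or beside it. C1117 had 1.6% ± 0.0177 in SCR against 1.0% ± 0.0144 in FBL1 and 1.2% ± 0.0178 in FBL2, and C1109 had 1.3% ± 0.0171, 0.8% ± 0.0143 and 0.9% ± 0.0168. SCR was the highest line at both. Over the whole window FBL1 was below SCR at 20 nucleotides and FBL2 at 37, but the 196 protected ones had little signal to lose. Of the 13 nucleotides with at least 1% in SCR, which include both cytidines, FBL1 was below SCR at 4 and FBL2 at 5. Scaled, C1117 fell by 0.410 units on average and C1109 fell by 0.355. Both calls were lost without scaling, at -0.297 and -0.268 units, under a median-ratio scaling or 1 factor per base, with a sliding mean and at 0.5 units. C1109 was also lost without DMSO subtraction.

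Other large differences missed the rule. A1077 had 1.1% ± 0.0147 in SCR against 0.6% ± 0.0112 in FBL1 and 0.7% ± 0.0136 in FBL2, a mean difference of -0.334 units, and it missed because FBL2 reached only -0.295. A1119 differed by -0.261 units and changed sign without scaling, where it was 0.0297. U969 was 1.31-fold and 1.21-fold of SCR before scaling but differed by only 0.262 units after it. That difference was 1.93 units without scaling and -0.155 with 1 factor per base, so its direction was set by the scaling. U1136 differed by 0.235 units, with -0.0153 under the box-plot scaling without a limit on outliers.

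**Figure D4:**
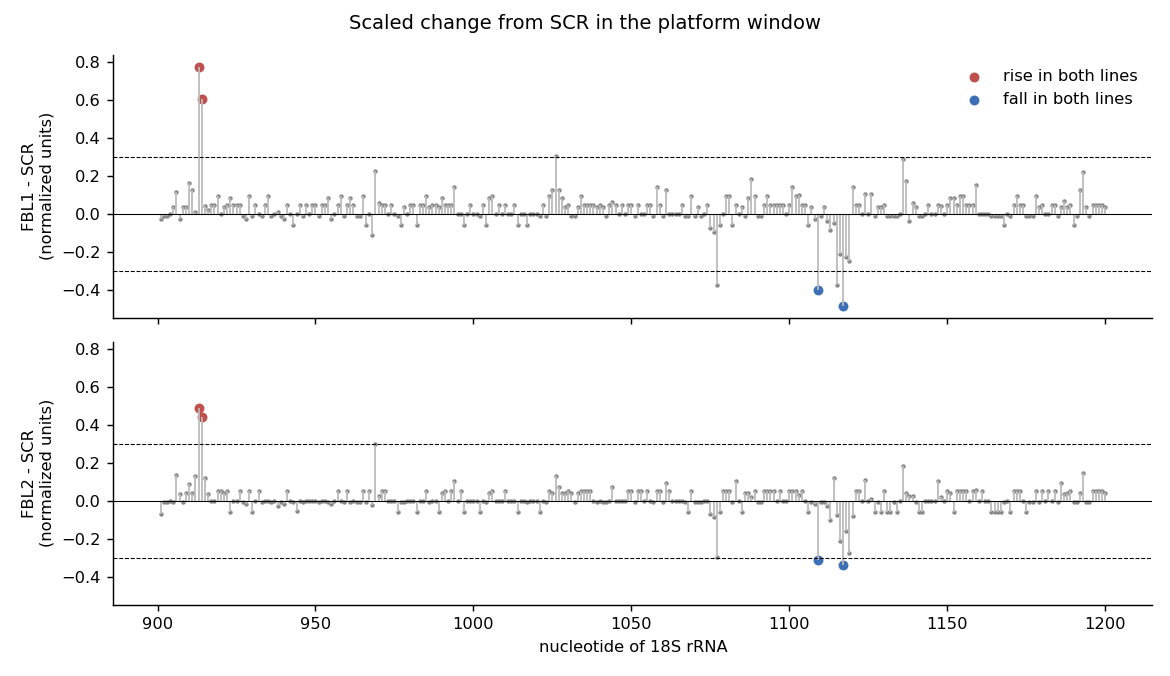
Difference of each knockdown from SCR in normalized units at each of the 300 platform nucleotides, FBL1 above and FBL2 below, both against the same SCR library; dashed lines mark 0.3 units. The 2 rises, A913 and U914, stand at the start of the window, and the 2 falls, C1109 and C1117, lie in or beside the reactive segment near index 1110.

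The last 46 nucleotides, index 1155 to 1200, were read again from the amplicon of primer set 1, at depths of 98418 to 267744 reads. Signal was low with both primer sets, with 0 flexible nucleotides and 0 called changes in each. With primer set 1, scaled by its own units, these zeros included near misses. G1187 had 0.418, 0.495 and 0.384 units in SCR, FBL1 and FBL2, under the limit of 0.4 in FBL2 alone. U1156 had 0.104, 0.66 and 0.384 units, a mean change of 0.417, and missed the rise rule in FBL2 alone. In the whole stretch of primer set 1, 7.43% of nucleotides were flexible, 2.62% were called as rises and 1.17% as falls. Mean signal in the shared nucleotides was 0.0587% in SCR against 0.183% in FBL1 and 0.12% in FBL2 when read with primer set 1, and 0.0457%, 0.124% and 0.0891% when read with primer set 2. The order of the lines was the same and the level was higher with primer set 1. Signals of the 2 sets lay within 1 step of 0.1% at 44, 37 and 43 of the 46 nucleotides. Medians were 0% or 0.1% in every line and set, so such closeness is likely whatever the agreement. The correlation across these nucleotides was 0.551, 0.472 and 0.633, a description of points that share a library and lie near the rounding step. Protected nucleotides were 34 by primer set 2 and 22 by primer set 1, and 20 by both, which is 20 of 34 and 20 of 22. Over the whole stretches 56.4% were protected in primer set 2 and 60.9% in primer set 1. With shares this high some nucleotides are protected in both readings whatever their agreement. Whether 20 exceeds that number was not tested.

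Within this stretch 3 nucleotides stood out after their values were seen. G1187 gave 0.4%, 0.6% and 0.4% with primer set 1 and 0.2%, 0.4% and 0.3% with primer set 2, in SCR, FBL1 and FBL2. U1193 gave 0.1%, 0.4% and 0.3% with primer set 1 and 0.1%, 0.6% and 0.4% with primer set 2, so SCR was the lowest line in both readings. U1156 differed between the readings, at 0.1%, 0.8% and 0.4% with primer set 1 and 0%, 0.1% and 0.1% with primer set 2. It lies next to the first position covered by primer set 1.

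**Figure D5:**
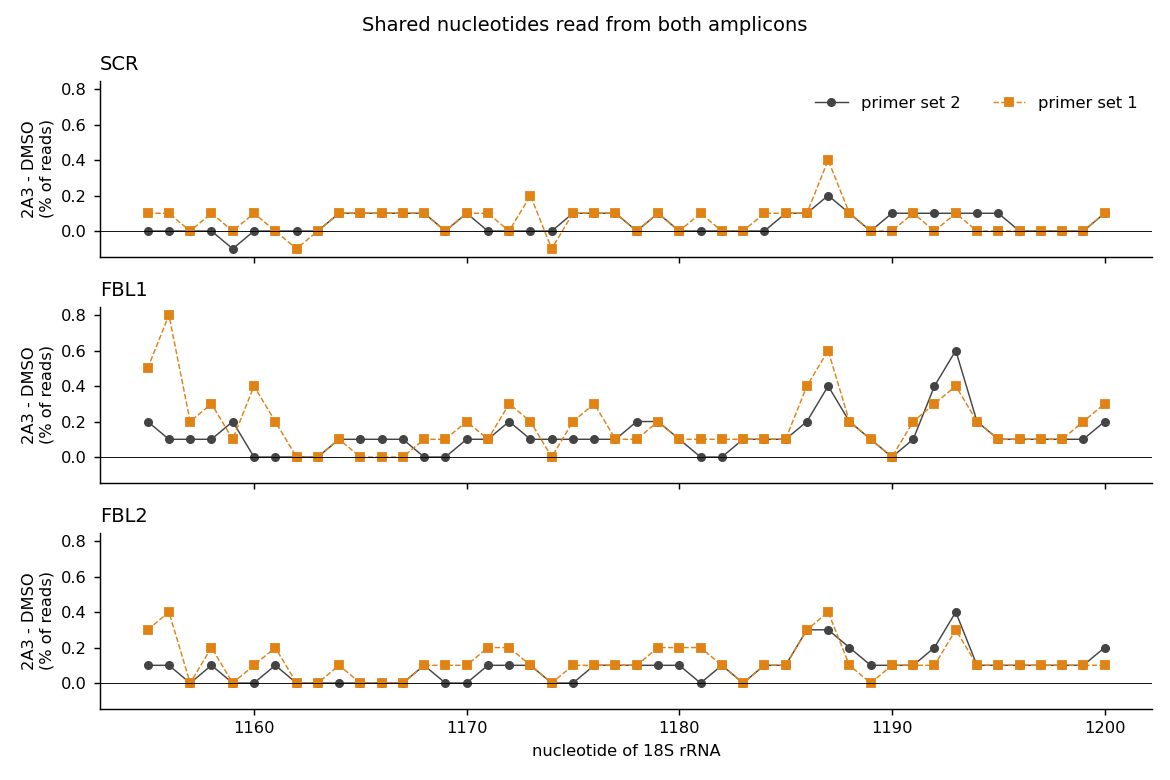
2A3 minus DMSO signal in percent of reads of the 46 shared nucleotides from primer set 2 (black circles) and primer set 1 (orange squares), 1 panel per line. All values are 0.8% or lower and the curves run together over most of the stretch. They separate most at index 1156 in FBL1, and less at 1155 and 1160, among others, in the same line.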

How the data were processed

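2A3 and DMSO libraries of SCR, FBL1 and FBL2 cells were used from primer set 2, and from primer set 1 for the shared nucleotides, 12 libraries in all. The deposited reactivity is the fraction of reads with an event at a position, which the authors rounded to 0.1% steps. The deposited coverage is a signal that gives the read depth. The deposited error, also a fraction, equals the root of reactivity divided by depth and covers counting only. The submitters' processing notes name Bowtie2 and SAMtools without versions. Not given in the sources used here are the reference build, the counted event and whether a library pools the duplicate wells of the design text.

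The difference of 2A3 and DMSO was recomputed from the fractions at positions with a depth of at least 100 reads, since the deposited difference columns are not filled in every 2A3 file. Scaling, classes and calls follow the rules given with the results, and the code for the calls was tested on simulated data with counting noise only, which says nothing of differences between cultures. The members, the lists and the rules were chosen with earlier results of these data known. Ratios to SCR by the mean of the lines were chosen after those by SCR alone were seen. Positions named are the 12 with the highest mean scaled signal, all calls, the 4 largest mean rises and falls, the highest DMSO position, the 4 longest protected runs, landmarks, listed modified nucleotides and predicted hairpins. Others were named after their values were seen, or as neighbours. The listed modified nucleotides were taken from general knowledge and checked for their base. Structures were predicted with RNAfold of ViennaRNA 2.7.2 at default settings. Alternatives covered scaling, DMSO subtraction, thresholds, smoothing, the control line and the sequence folded. Scripts ran in Python 3.11.15 with scipy 1.17.1, pandas 2.3.3, numpy 2.4.6 and, for plots, matplotlib 3.10.9.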

Additional observations from a re-analysis of the deposited data

How the results depend on the processing

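No paired analysis was possible because every group is a single library and no test across libraries was run. The limits are the single library, the 0.1% steps, which exceed most counting errors, and the scaling, on which most changes depend. The box-plot scaling leaves out no value below the 90th percentile; that limit was set after the form without it had been run and seen, so the unlimited form is given too. It left out 17.9% of values in SCR against 12.9% in FBL1 and 13.6% in FBL2, and its units were 0.116%, 0.398% and 0.267% of reads. It, the means without U969 and the count in at least 1 line were added after seeing the data. Where no cause is named, the cause was not tested.

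The 14 flexible nucleotides became 32 with box-plot scaling, 55 with its unlimited form and 25 with scaling on the platform alone; the other alternatives lay within 1.5 times. The 196 protected nucleotides became 44 at a limit of 0% and 79 without DMSO subtraction. The 2 rises became 8 with box-plot scaling, 25 with its unlimited form (sharing neither), 6 with 90th percentile scaling, 4 with scaling on the platform alone, 5 without scaling, 0 with a sliding mean, 0 at 0.5 units, 1 with FBL1 in the place of SCR and 0 with FBL2 there. The 2 falls became 14 with box-plot scaling, 110 with its unlimited form, 12 with scaling on the platform alone, 0 with median-ratio scaling, 0 without scaling, 0 with 1 factor per base, 1 without DMSO subtraction, 0 with a sliding mean, 5 at 0.2 units, 0 at 0.5 units, 4 with FBL1 alone, and 0 with either knockdown in the place of SCR.

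Directions turned at U969 with box-plot scaling (-5.86), its unlimited form (-59.3), scaling on the platform alone (-2.84), a sliding mean (-0.0624) and 1 factor per base (-0.155). They turned under the unlimited form at A913 (-0.485), U914 (-4.03) and U1136 (-0.0153), and without scaling at A1119 (0.0297).

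Levels are given for SCR, FBL1 and FBL2. The platform mean moved to a median of 0%, 0.1% and 0.1%, to 0.314%, 0.434% and 0.375% without DMSO subtraction, and to 0.154%, 0.251% and 0.198% without U969. The share of the level of the rest moved to 0.325, 0.366 and 0.34 against the part before the window, to 2.8, 3.18 and 2.67 against the part after it, and to 0.312, 0.367 and 0.329 without U969. The means of the shared nucleotides moved to 0.0587%, 0.183% and 0.12% with primer set 1. The difference of predicted unpaired and paired medians, 0.0333%, stayed within 1 step under the folds tried.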
